A study of Sus scrofa with 22 samples.

Results

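The untreated piglets of 2 experiments were compared with each other: 5 from a study of busulfan with cyclophosphamide (called BUCY in the labels) and 6 from a study of doxorubicin (called DOX). These 11 arrays were picked by their labelled source from the 22 arrays of the series, and the labels call all 11 piglets untreated. The remaining 11 arrays came from 5 BUCY-treated and 6 DOX-treated piglets, which enter the model's error and are quoted for reference. All were specific-pathogen-free crosses of Large White and Danish Landrace that had suckled from birth, lived in single cages and, before the study, had been fitted under anaesthesia with a stomach tube and a jugular catheter; the labels give their age as 3 days. Vehicle, litter, gut segment and sampling day of each group are not stated in the labels. The 2 groups therefore differ in the study they belong to, and anything that differed between the studies cannot be told apart from it.

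Small-intestinal RNA from each piglet was labelled with Cy5 and hybridised beside a Cy3-labelled pool of all samples, so a level is the log2 of the piglet's signal over the pool. A difference is the mean level in BUCY untreated piglets minus that in DOX untreated piglets. A gene was called when its adjusted p was under 0.05 in limma, with Benjamini-Hochberg adjustment over 24760 genes; every adjusted p below is from that fit, and errors are SDs over piglets for levels and standard errors for differences. Of these genes 2652 carried a gene symbol, and only they can be named.

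The intestine of a newborn pig changes quickly after birth. Its enterocytes first take up whole milk proteins into large lysosomes, then renew from dividing crypt cells, and carry brush border enzymes that finish the digestion of peptides and sugars. Interferons, released when cells sense viral nucleic acid, act through the kinase-linked receptors and the STAT and IRF factors to switch on a set of antiviral genes, and the same signal raises the machinery that loads peptides on MHC class I.

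The labelled tissue could be checked on 3 of 8 markers fixed for small-intestinal epithelium. FABP2, the fatty acid binding protein of enterocytes, CDX2, a transcription factor of the intestinal epithelium, and ANPEP, a brush border aminopeptidase, stood well above background on all 11 arrays. FABP2 levels were -0.37 ± 0.74 (SD, n = 5) in BUCY and 0.20 ± 0.47 (SD, n = 6) in DOX untreated piglets (adjusted p = 0.476), and CDX2 levels 0.14 ± 0.20 and 0.35 ± 0.32 (adjusted p = 0.432).

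The 2 groups of untreated piglets differed widely. Of all genes 25.2% were called: 3228, or 13.0%, were higher and 3013, or 12.2%, lower in BUCY untreated piglets. Among genes with a symbol 273 of 2652 (10.3%) were higher and 631 (23.8%) lower, 34.1% in all, and these shares are the background for every gene group below. Genes without a symbol were called higher in 13.4% and lower in 10.8%. Differences over 2-fold in called genes numbered 476 upward and 610 downward. The levels of the 5 and the 6 arrays did not overlap in 4441 genes (17.9%), and in 684 genes with a symbol (25.8%). With each array centred on its median in place of loess, 3854 genes were called, 37.7% of them higher against 51.7%, and among genes with a symbol the share higher was 17.7% against 30.2%.

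The first principal component of the 11 arrays held 52.2% of the variance and separated the groups, BUCY arrays at 28.1 to 53.9 and DOX arrays at -46.0 to -23.4. The second held 16% and spread the BUCY arrays, with array 1 at 30.7, array 2 at 33.7 and array 4 at -34.3. BUCY arrays 1 and 2 lay on slide 2, and array 4 on slide 5 with another scan day. Slide, scan day and piglet cannot be told apart in this spread. Levels of arrays from different groups correlated across genes at -0.37 to 0.09, against 0.36 to 0.83 within BUCY and 0.43 to 0.78 within DOX. Each level is a ratio over a pool that holds both groups, so what all piglets share drops out. Low or negative correlations between groups are therefore no measure of how alike the tissues are. The dyes are stated in the labels and the pool contains both groups, so the direction of each ratio was kept.

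**Figure D1:**
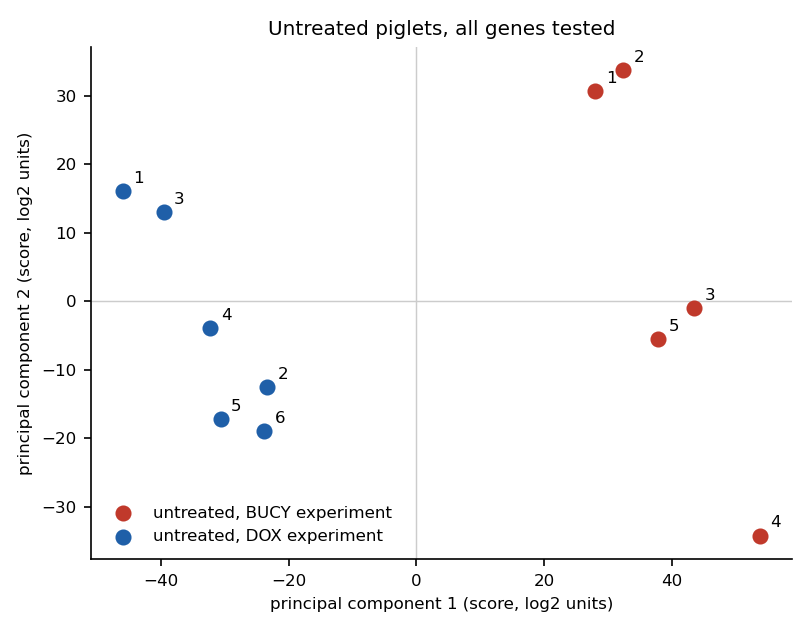
Scores of the 11 untreated arrays on the first 2 principal components of the levels of all tested genes (log2 units; numbers are replicates). The groups separate along the first component, with BUCY arrays at 28.1 to 53.9 and DOX arrays at -46.0 to -23.4.

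Technical measures of the arrays were close between the groups. Probes well above background made up 69.4% ± 3.09 (SD, n = 5) and 68.9% ± 2.55 (SD, n = 6), and the median Cy5 signal was 164 ± 44.0 and 166 ± 42.7 (exact permutation p = 0.736 and 0.970, two-sided; 0.970 for both after adjustment over 3 measures). The groups shared slides and scan days in part: slide 2 held BUCY 1 and 2 with DOX 3, slide 7 held BUCY 5 with DOX 5 and 6. Of the 6241 called genes, 6189 (99.2%) kept their sign within slide 2 and 6156 (98.6%) within slide 7. These arrays also entered the calls, so this describes them and is no separate evidence.

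**Figure D2:**
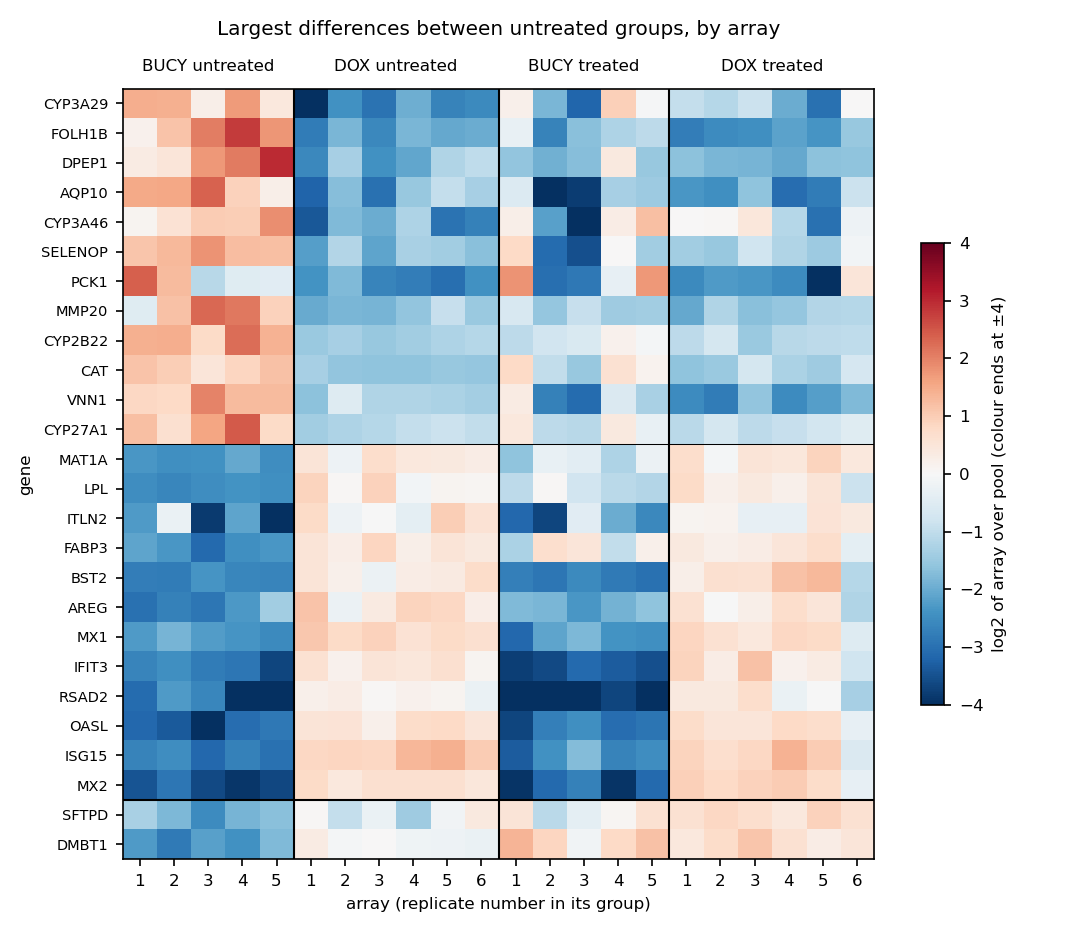
Levels (log2 of array over pool) of the 12 largest increases and 12 largest decreases among named genes, with SFTPD and DMBT1 below, on all 22 arrays by group. In 23 of the 24 genes above the lower line the 2 untreated groups do not overlap, against 25.8% of all genes with a symbol. These 24 were chosen for large differences on the same arrays, so the missing overlap is no separate result. Interferon genes such as MX2, ISG15 and OASL are low in BUCY-treated piglets as well.

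Antiviral genes made up much of the low end in BUCY untreated piglets. Of 35 interferon response genes tested, 25 were lower and 1 higher, with a median difference of -1.48 against -0.08 over genes with a symbol. MX2, a dynamin-like antiviral GTPase, had levels of -3.44, -2.91, -3.61, -3.90 and -3.65 in the BUCY piglets and a lowest, median and highest of 0.42, 0.63 and 0.76 in the DOX piglets. Every BUCY array was far below every DOX array, a 17.1-fold difference (log2 -4.09, SE 0.236, adjusted p = 5.68e-10). In bulk tissue fewer cells of a type and less RNA per cell cannot be told apart, here or below.

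ISG15, a ubiquitin-like protein attached to others during the response, stood at -2.66, -2.48, -3.15, -2.70 and -3.00 against 0.82, 0.94 and 1.42 (lowest, median and highest), which made it 14.3-fold lower (adjusted p = 5.10e-09). OASL, a relative of the enzymes that sense double-stranded RNA, stood at -3.13, -3.34, -4.0, -3.05 and -2.87 against 0.20, 0.54 and 0.80, a 14.2-fold difference (adjusted p = 5.68e-10). Neither gene overlapped between groups. RSAD2, also called viperin, was 10.2-fold lower, IFIT3, which belongs to a family that binds viral RNA, 9.88-fold, MX1 8.25-fold, BST2 (tetherin, which holds budding virus at the membrane) 7.70-fold, and USP18, the protease that removes ISG15, 5.63-fold, with adjusted p of at most 7.76e-07.

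The genes of the pathway were then read by role; apart from TLR3 and TLR7, the genes named here were chosen after their values were seen, as were IFNB1, IFNG, CXCL9, CXCL10, B2M and SLA-DRA below. Among the sensors, DHX58 was 6.10-fold and IFIH1 3.06-fold lower, and TLR3 and TLR7, receptors for viral RNA in endosomes, 1.85-fold and 2.40-fold. Among the factors, STAT2 was 2.13-fold lower (adjusted p = 2.57e-04) and IRF7 3.34-fold, while IRF9 levels of -0.12 ± 0.19 (SD, n = 5) and 0.36 ± 0.29 (SD, n = 6) did not pass (adjusted p = 0.0578). The receptors did not share this direction: IFNGR2 was 1.67-fold higher (adjusted p = 0.00200; 0.0625 with median centring), and IFNAR2 lay at 0.54 ± 0.23 against 0.03 ± 0.19 without passing (adjusted p = 0.0936).

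Interferon transcripts themselves were close to background. IFNB1 stood well above background on 0 of 5 BUCY arrays and on 5 of 6 DOX arrays, which makes it at least 1.30-fold lower. The bound sets the DOX mean against the lowest signal well above background on the BUCY arrays (adjusted p of the fit 0.0258). This call ended when BUCY array 3 or 5, or DOX array 1 or 4, was left out, as well as in a fit that held slide fixed (adjusted p = 0.235). Median centring, Cy5 alone, the authors' own ratios and a fit with scan day held fixed also ended it (adjusted p from 0.0532 to 0.0790). So did leaving out the 6 arrays whose titles carry a suffix (adjusted p = 0.146). IFNG stood well above background on 2 of 5 and 4 of 6 arrays; its difference ran from -1.44 to -0.25 over the alternatives, and its call (adjusted p = 0.0400) was lost under most of them.

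CXCL9 and CXCL10, chemokines that draw T cells and respond to interferon, were 4.19-fold and 5.41-fold lower, but 1 piglet stood apart. CXCL10 levels in BUCY piglets were -3.41, -3.18, -2.45, -3.24 and -0.37, against -0.55, -0.07 and 0.37 in DOX piglets. BUCY piglet 5 lay inside the DOX range for both chemokines, while its MX2, ISG15 and OASL were as low as in the other 4. Within slide 7, which holds this piglet, the differences were 0.06 for CXCL9 and -0.25 for CXCL10, and the CXCL9 call was lost with slide held fixed (adjusted p = 0.0508).

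The treated piglets of the same experiments, which share no array with the comparison, showed the same split for these genes. There 26 of the 35 were lower and 2 higher in BUCY-treated against DOX-treated piglets, where 11.5% and 4.60% of genes with a symbol were called, and 25 genes were called with the same sign in both comparisons. MX2 levels were -3.36 in BUCY-treated and 0.68 in DOX-treated piglets, beside -3.50 and 0.59 in untreated ones. For 0 of the 35 genes did the difference between experiments itself change with treatment past the threshold, against 5.89% of all genes.

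MHC class I antigen processing genes followed the same direction. Of 16 tested, 10 were lower and 0 higher, with a median of -0.73. TAP1, which pumps peptides into the endoplasmic reticulum, was 3.69-fold lower (levels of -1.41 ± 0.34, n = 5, and 0.48 ± 0.28, n = 6), PSMB9, an immunoproteasome subunit, 3.17-fold, and PSME2, a proteasome activator, 3.19-fold, each without overlap. B2M, the light chain of class I, was 2.26-fold lower (adjusted p = 5.68e-04). Of the 10 MHC class II genes tested 0 were called in either direction by limma, with a median of 0.26. SLA-DRA, the class II alpha chain, lay at 0.12 ± 0.28 and -0.15 ± 0.35. Probes of the MHC family may share signal.

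**Figure D3:**
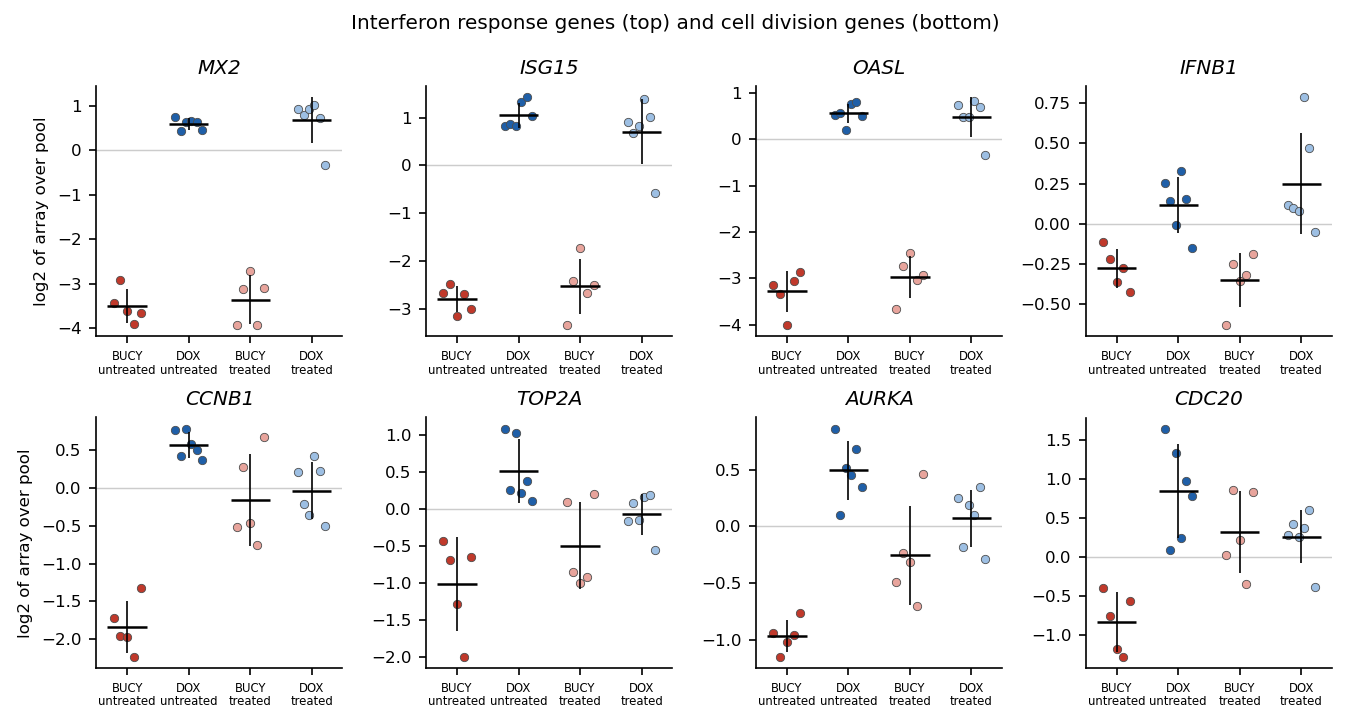
Levels (log2 of array over pool) of the interferon response genes MX2, ISG15 and OASL with the interferon IFNB1 (top) and 4 cell division genes (bottom) in the 4 groups. IFNB1 was not well above background on any BUCY untreated array. Points are arrays, long bars means and thin bars SDs. MX2, ISG15 and OASL are low in both BUCY groups, while CCNB1, AURKA and CDC20 are low in BUCY untreated piglets beside the other 3 groups.

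Cells of the immune system were represented by several marker lists, and most of the genes that differed were lower in BUCY untreated piglets. Of 28 macrophage and dendritic cell genes 11 were lower and 0 higher, with a median of -0.31. CD86, a co-stimulatory ligand for T cells, stood at -1.66, -1.55, -2.37, -2.69 and -1.98 against 0.34, 0.57 and 0.95, or 6.21-fold lower (adjusted p = 1.13e-08). All 5 BUCY piglets lay below all DOX piglets. GPNMB, a glycoprotein of activated macrophages, was lower (log2 -1.73; -3.30 to -1.06 over the alternatives) and stood well above background on 4 of 5 BUCY arrays. The mean level over the list ran from -0.57 to -0.38 on BUCY arrays and from -0.03 to 0.24 on DOX arrays, and its part in the interferon difference was not tested.

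Among lymphocyte genes 6 of 26 for T and NK cells were lower, a share near the background of 23.8%, and 6 of 8 for B and plasma cells. CD8A, the co-receptor of cytotoxic T cells, was 1.89-fold lower, CD2, an adhesion receptor of T cells, 1.98-fold and GZMK, a granzyme, 1.75-fold; CD3D, CD3E and CD3G, which define T cells, were not called. Among B cell genes TNFSF13B, the survival factor BAFF made largely by myeloid cells, was 2.59-fold lower (well above background on 4 of 5 BUCY arrays), XBP1, the factor of secretory cells, 1.55-fold, and CD79A, a chain of the B cell receptor, 1.59-fold. Of 8 mast cell and eosinophil genes 3 were lower, but without BUCY array 3 only 1 was, and with slide held fixed 0 were. Neutrophil genes were mixed, with ITGB2, an integrin chain of all leukocytes, 2.08-fold lower, and LTF, lactoferrin, 1.64-fold higher among 11 tested.

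Of 55 genes for cytokines, chemokines and their receptors 17 were lower and 1 higher. CCL8, a chemokine for monocytes, was 2.32-fold lower and CCL4, a chemokine for T cells and macrophages, 2.01-fold. CCL20, which the epithelium makes to attract dendritic cells and lymphocytes and which was chosen after its values were seen, was 5.81-fold lower (adjusted p = 0.00137), with BUCY piglet 4 at -0.55 and the other 4 at -3.40 to -2.35. Of 27 pattern recognition genes 10 were lower and 2 higher, among them CASP1, the inflammasome protease, 3.34-fold lower (adjusted p = 4.44e-06).

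SFTPD and DMBT1, which the series title names, were both lower in BUCY untreated piglets. SFTPD, surfactant protein D, a lectin that binds microbial sugars, had levels of -1.29, -1.80, -2.50, -1.85 and -1.66 against 0.06, -0.95, -0.27, -1.43, -0.15 and 0.40 in the DOX piglets. DOX piglet 4 fell among the BUCY values, and the difference was 2.69-fold (log2 -1.43, SE 0.301, adjusted p = 0.00127; exact permutation p = 0.00866, two-sided, and 0.00866 after adjustment over the pair). DMBT1, a mucosal scavenger glycoprotein that binds it, stood at -2.25, -2.84, -2.16, -2.42 and -1.78 against -0.28, -0.12 and 0.34 (lowest, median and highest). It was 4.69-fold lower without overlap (log2 -2.23, SE 0.215, adjusted p = 2.39e-07), and its exact permutation p of 0.00433 is the smallest that 462 splits allow (0.00866 after adjustment).

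The 2 genes differed in how treated piglets stood beside these values. DMBT1 lay at 0.81 in BUCY-treated and 0.61 in DOX-treated piglets, so its difference between experiments was -2.23 without and 0.21 with treatment (test of the change: adjusted p = 3.26e-04). For SFTPD, at -0.05 and 0.68, that change did not pass (adjusted p = 0.397). In the DMBT1 comparison the DOX untreated arrays spread by an SD of 0.22, and for SFTPD by 0.68.

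Other secreted defence genes were mixed. Of 33 mucosal defence genes 9 were lower and 3 higher, and without BUCY array 4 the lower count was 5. ITLN2, an intelectin that binds microbial glycans, was 7.05-fold lower (adjusted p = 7.81e-04) but ranged in BUCY piglets from -4.21 in piglet 5 to -0.26 in piglet 2, the latter inside the DOX range. LGALS9, a galectin, was 3.92-fold lower without overlap. LYZ, lysozyme, chosen after its values were seen, ranged from -4.08 to -0.70 in BUCY and from -1.58 to 0.42 in DOX piglets. Its difference of -2.0 (adjusted p = 0.0260) did not pass without BUCY array 2 (-1.54, adjusted p = 0.0902) or 4, or without DOX array 4 or 6. The LYZ call was also lost with slide held fixed (0.0829) and when the arrays were scaled to each other (0.0547). SPDEF, a factor that goblet and Paneth cells need, was 2.56-fold lower, while the other 7 of 8 goblet and mucus genes were not called.

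**Figure D4:**
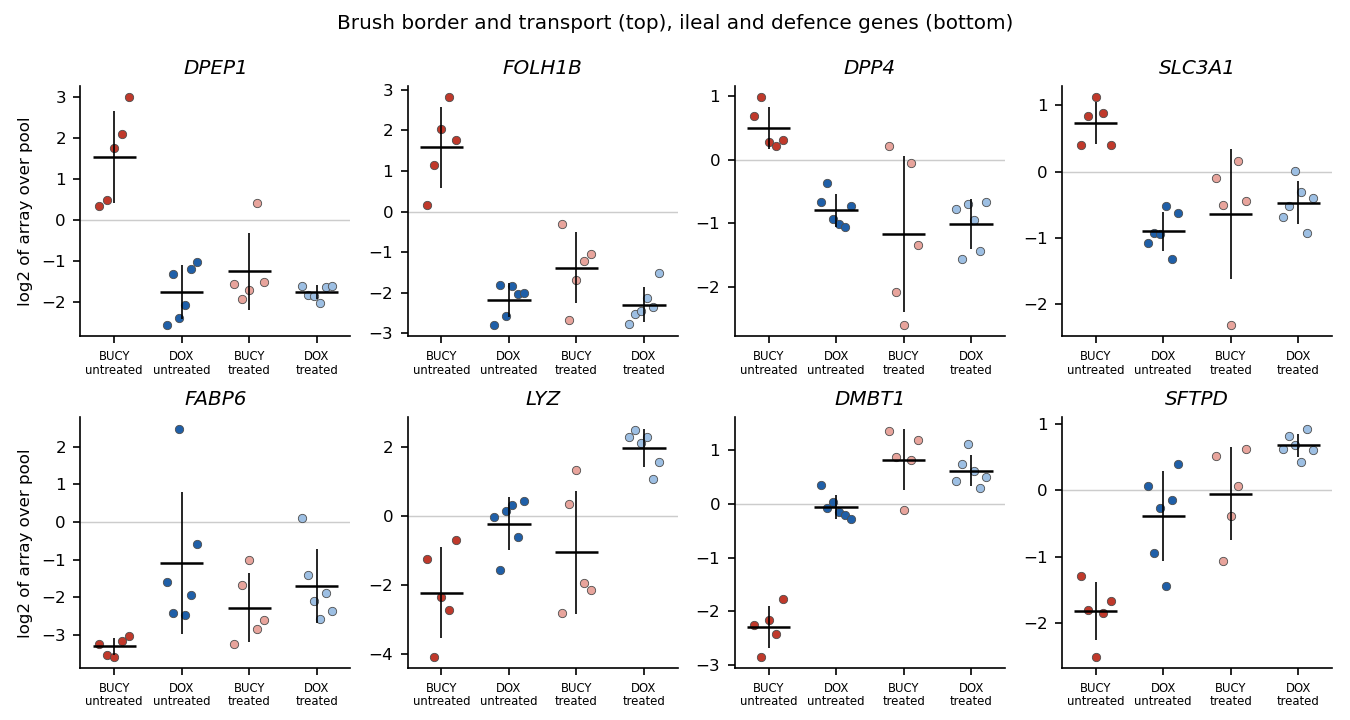
Levels (log2 of array over pool) of brush border and transport genes (top) and of ileal and defence genes (bottom) in the 4 groups. Points are arrays, long bars means and thin bars SDs. DPEP1, FOLH1B, DPP4 and SLC3A1 are above 0 on all BUCY untreated arrays and below 0 on all DOX untreated arrays, and DMBT1 shows the reverse order of groups.

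Dividing cells left a second mark. Of 15 cell cycle genes tested, 12 were lower and 0 higher in BUCY untreated piglets, with a median of -1.18. CCNB1, cyclin B1, which starts mitosis, stood at -1.72, -1.95, -1.97, -2.23 and -1.32 against 0.36, 0.55 and 0.78, a 5.31-fold difference (adjusted p = 1.48e-07). CDK1, its kinase partner, was 4.26-fold lower and BIRC5, survivin, of the chromosomal passenger complex, 3.48-fold, and none of the 3 overlapped between groups. CCND2, CCND3 and CDK4, which act before DNA replication, were the 3 that were not called.

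Further members were read after their values were seen. TOP2A, the topoisomerase that doxorubicin targets, was 2.87-fold lower in BUCY untreated piglets (levels of -1.01 ± 0.63, n = 5, and 0.52 ± 0.43, n = 6; adjusted p = 3.08e-04), AURKA, a mitotic kinase, 2.75-fold, and CDC20, which triggers the exit from metaphase, 3.20-fold. In contrast to the interferon genes, these did not split the treated piglets: 0 of the 15 were called there in limma. For 11 of the 15 the difference between experiments changed with treatment past the threshold, against 5.89% of all genes. CCNB1, for example, lay at -0.16 in BUCY-treated and -0.03 in DOX-treated piglets.

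AREG, amphiregulin, a growth factor that acts on the EGF receptor, had levels of -2.98, -2.69, -2.89, -2.29 and -1.38 against -0.24, 0.60 and 1.13. It was 7.90-fold lower without overlap (adjusted p = 7.54e-07). IHH, the hedgehog ligand of mature enterocytes, was 2.72-fold higher and IGFBP3, which binds insulin-like growth factors, 1.84-fold. The list of crypt, stem and differentiation genes as a whole was mixed, with 6 of 28 higher and 3 lower; the lower count was 1 without BUCY array 3, 4 or 5 or any DOX array except 4.

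The surface enzymes of mature enterocytes stood on the other side. Of 11 brush border genes 6 were higher and 0 lower in BUCY untreated piglets, with a median of 1.11. DPEP1, a dipeptidase, had levels of 0.33, 0.48, 1.75, 2.09 and 2.98 against -2.57, -1.70 and -1.03, or 9.81-fold higher (log2 3.29, SE 0.436, adjusted p = 1.08e-05). FOLH1B, a folate hydrolase, stood at 0.16, 1.14, 2.04, 2.81 and 1.75 against -2.80, -2.02 and -1.81, a 13.5-fold difference (adjusted p = 5.68e-07). BUCY piglets 1 and 2, which shared slide 2, had the lowest values of both genes in their group, still above every DOX piglet.

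VNN1, a pantetheinase, was 5.39-fold higher, and ANPEP 1.77-fold (adjusted p = 0.0254). The ANPEP call was lost with BUCY array 1 or 2 or DOX array 3 or 4 left out. Median centring (adjusted p = 0.425) and slide held fixed (0.0962) also ended it. So did Cy5 alone, the scanner software's ratio and the mean of all probes (adjusted p from 0.0543 to 0.0604). DPP4, a dipeptidyl peptidase, and ACE, the angiotensin-converting enzyme, both chosen after their values were seen, were 2.45-fold and 2.60-fold higher. The DPP4 call was lost with median centring (difference 1.07, adjusted p = 0.228), with Cy5 alone (0.0668) and with slide held fixed (0.0506). In treated piglets the list averaged -0.95 (BUCY) and -0.81 (DOX), beside 0.80 and -0.67 in untreated ones.

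Of 28 channels and transporters 11 were higher and 4 lower, but 6 were higher with median centring and 5 with slide held fixed. AQP10, an aquaglyceroporin, was 9.64-fold higher (levels of 1.52, 1.55, 2.35, 0.92 and 0.23 against -3.19, -1.61 and -0.96), and SLC28A1, a nucleoside carrier, 3.93-fold. SLC7A1, a carrier of cationic amino acids at the basal side, was 2.08-fold lower. SLC3A1 and SLC7A9, the 2 subunits of the cystine carrier, and SLC5A1, the sodium-glucose carrier, all chosen after their values were seen, were 3.1-fold, 2.17-fold and 2.84-fold higher. The SLC5A1 call was lost without BUCY array 1 (adjusted p = 0.0505), and that of SLC7A9 without BUCY array 2 or DOX array 4. Both were also lost with median centring (adjusted p = 0.208 and 0.320) and with slide held fixed (0.123 and 0.109).

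Lysosomal hydrolases, which are abundant in enterocytes that still take up milk protein, moved the same way. Of 18 genes for neonatal endocytosis and lysosomes 8 were higher and 0 lower, with a median of 0.80; with median centring 4 were. ARSA, arylsulfatase A, was 3.26-fold higher (levels of 0.39, 0.58, 2.06, 1.26 and 0.98 against -1.09, -0.63 and -0.34). CTSA, protective protein of the lysosome, was 2.78-fold higher, and neither gene overlapped. GUSB, beta-glucuronidase, chosen after its values were seen, was 2.05-fold higher (adjusted p = 0.199 with median centring), and ranged from 0.15 in BUCY piglet 1 to 1.52 in piglet 3. The mean over the list ran from -0.11 to 1.34 on BUCY arrays and from -0.50 to 0.08 on DOX arrays, so these ranges overlapped.

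Markers of position along the intestine were read next, because the segment of each group is not given. Of 14 genes of the ileum list 4 were tested, and 3 were lower in BUCY untreated piglets. SLC10A2, the ileal bile acid carrier, stood at -1.16, -0.96, -1.20, -1.17 and -0.98 against 0.17, 0.61 and 1.54, or 3.74-fold lower (adjusted p = 3.42e-06). FABP6, the ileal bile acid binding protein, stood at -3.24, -3.52, -3.57, -3.16 and -3.02 against -1.60, -2.40, 2.47, -2.47, -1.95 and -0.58, 4.64-fold lower (adjusted p = 0.0181). DOX piglet 3 stood far above the other 5, and the groups did not overlap. Without DOX array 3 the difference was -1.50 against -2.21. The call was lost without the 6 arrays whose titles carry a suffix (adjusted p = 0.0664). Of the untreated arrays only BUCY 4 and 5 carry it, so it falls in 1 of the compared groups. The FABP6 call was lost as well when the arrays were scaled to each other (adjusted p = 0.0541).

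GCG, which encodes GLP-1 and is expressed by L cells of the distal gut, was 1.79-fold lower (adjusted p = 0.00533; 0.0622 with slide held fixed). TCN2, transcobalamin, lay at 0.79 ± 0.81 and -0.11 ± 0.63 and was not called (adjusted p = 0.0926). In the proximal list 1 of 12 genes was higher, SLC46A1, the proton-coupled folate carrier of the duodenum (3.12-fold), and 1 lower, FABP1 (2.76-fold, adjusted p = 0.0387). FABP1 lost its call when 1 of 8 arrays was left out (BUCY 3, 4 or 5, or DOX 1, 2, 4, 5 or 6), and with slide held fixed (adjusted p = 0.160). Its call also ended with median centring (adjusted p = 0.138), Cy5 alone (0.0801), no filter on signal (0.0564) and scan day held fixed (0.0538). TMPRSS15, enteropeptidase, made in the duodenum, lay at 0.41 ± 0.79 and -0.35 ± 0.37 (adjusted p = 0.178), and CCK at 0.19 ± 0.29 and -0.35 ± 0.35 (adjusted p = 0.0722). Their part in the differences of brush border, transport and defence genes was not tested.

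Hormone genes of enteroendocrine cells were called in both directions, 5 higher (3 with median centring) and 2 lower of 14. GHRL, ghrelin, was 3.57-fold higher (levels of 0.93 ± 0.52, n = 5, and -0.90 ± 0.53, n = 6), SST, somatostatin, 1.66-fold higher and GAST, gastrin, 2.04-fold lower, with no overlap for any of the 3. The SST call was lost with median centring (adjusted p = 0.269). These hormones are also made in the stomach and upper gut.

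**Figure D5:**
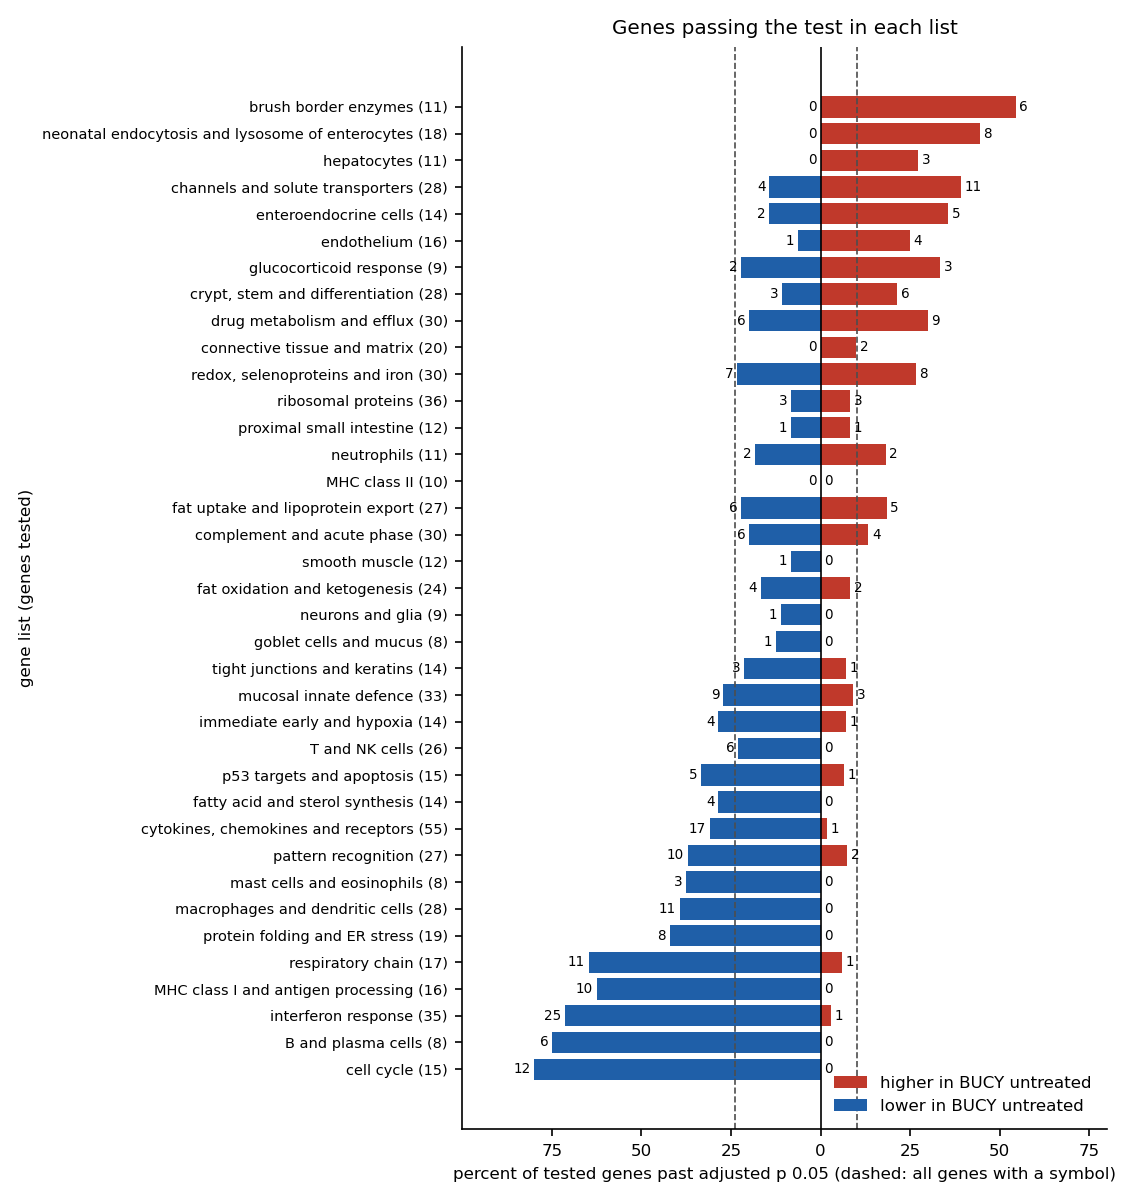
Share of the tested genes of each list that passed an adjusted p of 0.05, higher (right) or lower (left) in BUCY untreated piglets, for lists with at least 8 genes tested (number in brackets, counts at the bars). Dashed lines mark the shares over all genes with a symbol, 10.3% and 23.8%; cell cycle, interferon and MHC class I lists reach far beyond the left line and brush border and lysosomal lists beyond the right.

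Genes that handle drugs and other foreign compounds held several of the largest increases. CYP3A29, the main porcine CYP3A enzyme, had levels of 1.47, 1.43, 0.24, 1.70 and 0.41 against -4.28, -2.61 and -1.95, the largest increase at 14.5-fold (log2 3.85, SE 0.613, adjusted p = 8.22e-05). CYP2B22 stood at 1.42, 1.45, 0.76, 2.24 and 1.40 against -1.52, -1.35 and -1.13, or 6.94-fold higher (adjusted p = 1.13e-08), and CYP3A46 was 9.42-fold higher. Neither overlapped, and probes of the CYP3A family may share signal.

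NR1I3, the receptor CAR that induces such enzymes, chosen after its values were seen, was 4.19-fold higher (adjusted p = 0.00296). Over the list, 9 of 30 genes were higher and 6 lower (2 lower with median centring), and GSTO1, a glutathione transferase, was 2.39-fold lower. The differences of CYP3A29 and CYP2B22 changed with treatment (adjusted p = 0.0263 and 4.21e-04): in treated piglets they were 0.55 and 0.60. CYP27A1, a mitochondrial enzyme of sterol side chains, was 5.33-fold and MMP20, known as a protease of tooth enamel, 7.06-fold higher.

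Of 30 redox, selenoprotein and iron genes 8 were higher and 7 lower, and with median centring 4 were higher. SELENOP, the selenium transport protein, stood at 1.11, 1.29, 1.78, 1.23 and 1.19 against -2.19, -1.54 and -1.18, or 7.80-fold higher (adjusted p = 3.10e-04). CAT, catalase, was 5.51-fold higher, with levels of 0.93 ± 0.28 (SD, n = 5) against -1.53 ± 0.11 (SD, n = 6), and GPX3, a secreted glutathione peroxidase, 3.40-fold. GSS, glutathione synthetase, was 1.69-fold lower. Chosen after their values were seen, HMOX1, which breaks down haem, and FTH1, the ferritin heavy chain, were 2.43-fold and 2.58-fold higher, while GPX2, the peroxidase of the gut epithelium, was 2.64-fold lower. The FTH1 call was lost with median centring (adjusted p = 0.0795), and its log2 difference of 1.37 was 0.32 with Cy5 alone.

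Lipid genes were read by step, beside the shares of 10.3% higher and 23.8% lower over all genes with a symbol. In fatty acid and sterol synthesis 4 of 14 were lower and 0 higher: SCD, the stearoyl-CoA desaturase, stood at -1.89, -1.76, -2.72, -2.85 and -2.95 against -0.04, 0.21 and 0.60, or 6.38-fold lower (adjusted p = 8.08e-08), FASN, fatty acid synthase, was 2.43-fold and ACLY, which supplies its acetyl-CoA, 1.79-fold lower. In uptake and export 5 of 27 were higher (3 with median centring) and 6 lower. FABP3, a fatty acid binding protein, was 7.60-fold lower and LPL, lipoprotein lipase, 6.98-fold, with LPL levels between -2.60 and -2.38 on all 5 BUCY arrays. PLIN2, the coat protein of lipid droplets, was 3.46-fold lower, and none of these 3 overlapped.

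In the same list APOA2, an apolipoprotein of HDL, was 3.83-fold higher, and APOA1, the main protein of HDL, and APOM, which carries sphingosine-1-phosphate, both chosen after their values were seen, were 3.58-fold and 4.37-fold higher. The calls of APOA1 and APOM were lost with slide as a fixed block (adjusted p = 0.0618 and 0.0752). That of APOA1 was also lost with median centring (0.104) and with Cy5 alone (0.101). APOM lost its call as well without the 6 arrays whose titles carry a suffix (adjusted p = 0.0802). In fat oxidation 2 of 24 genes were higher, UCP3, a mitochondrial carrier (5.11-fold), and PPARGC1A, a coactivator of mitochondrial genes (2.46-fold), and 4 were lower (2 with median centring), among them CPT1A, which admits fatty acids to mitochondria (1.92-fold).

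Mitochondrial and secretory machinery was lower in smaller steps. Of 17 respiratory chain genes 11 were lower (7 with median centring) and 1 higher, with a median of -0.61: ATP5A1, a subunit of the ATP synthase, was 1.90-fold, NDUFV2, of complex I, 1.61-fold and COX7A2, of complex IV, 1.60-fold lower. Of 19 protein folding genes 8 were lower and 0 higher, PDIA4, a disulfide isomerase of the endoplasmic reticulum, by 2.64-fold and HSP90B1, a chaperone of the same compartment, by 2.15-fold. CYCS, cytochrome c, was 2.33-fold and SFN, an inhibitor of the cell cycle induced by p53, 4.95-fold lower. Ribosomal protein genes lay near the middle, with 3 of 36 higher, 3 lower and a median of -0.04 that moved to -0.26 with median centring.

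Some enzymes best known from the liver also differed. PCK1, the first enzyme of gluconeogenesis, was 7.07-fold higher (adjusted p = 0.0191), with BUCY levels of 2.40, 1.28, -1.11, -0.49 and -0.46 and a DOX range of -3.02 to -1.76. Its call was lost without BUCY array 1 (2.30, adjusted p = 0.0632) and with median centring (0.0934). MAT1A, which makes S-adenosylmethionine, was 6.52-fold lower without overlap (adjusted p = 2.69e-08). Of 11 hepatocyte genes 3 were higher (1 with median centring), while ALB, albumin, was not called.

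Of 9 glucocorticoid response genes 3 were higher and 2 lower, and of 14 immediate early and hypoxia genes 1 was higher and 4 lower. Over all genes with a symbol 10.3% were higher and 23.8% lower. In the immediate early and hypoxia list 0 were higher and 2 lower with slide held fixed, and 2 were lower without BUCY array 2. SGK1, a kinase induced by glucocorticoids and mineralocorticoids, was 4.07-fold higher (levels of 0.72, 0.49, 2.02, 1.68 and 1.26 against -1.46, -0.78 and -0.27), and HSD11B2, which inactivates cortisol, 2.11-fold lower. PGK1, a glycolytic enzyme that responds to hypoxia, was 1.78-fold lower. HK2, hexokinase, was lower too (log2 -0.84; -2.88 to -0.80 over the alternatives), and stood well above background on 2 of 5 BUCY arrays. Of 12 smooth muscle genes 1 was called, of 20 matrix genes 2 (0 with median centring), of 9 neuron and glia genes 1 (0 without BUCY array 4), and of 16 endothelial genes 5, among them VWF, von Willebrand factor, 1.90-fold higher. Of 14 tight junction and keratin genes 4 were called, KRT8, a keratin of simple epithelia, by 1.84-fold lower.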

How the data were processed

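The deposited scanner files hold median spot and local background intensity in Cy5 and Cy3, a log10 ratio of the processed signals and other columns of flags, and their file headers name Agilent Feature Extraction 10.7.3.1 as the software. The authors also deposited log2 ratios (Cy5 over Cy3) in a table, used here as an alternative only.

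Signals were background-corrected by normexp (offset 50) and loess-normalised within arrays with limma 3.58.1 in R 4.3.3. Outlier spots were dropped and spots of a probe averaged. Of 43603 probes 6700 matched 3029 RefSeq symbols (Sscrofa11.1); each gene was read from its brightest probe, and was tested if Cy5 stood well above background on at least 5 of 22 arrays. Other probes of named genes had the same sign in all 86 genes that had any. One two-sided limma model of the 4 group means (18 residual degrees of freedom) gave the differences. The number of arrays limits precision. The limma p-values set each difference against the spread between arrays within the 4 groups, treated piglets included. Each untreated group belongs to its own study, so these p-values do not measure variation between studies.

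Named were the 12 strongest called genes in each direction, both title genes, up to 3 called genes per list and markers of tissue or region; 39 more genes were chosen after their values were seen or as further markers. Some genes that the rule picks are not reported here. The members and 43 lists were chosen with earlier results of these data known. On simulated data with independent noise for each gene and array, 92 of 100 genes changed by a log2 of 1 were recovered. In the same run all 100 genes changed by a log2 of 2 were recovered, with 13 false calls among 24760 genes. The simulation held no slide or scan day effect, so it does not measure the false calls of the real arrays. Figures used matplotlib 3.10.9.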

Additional observations from a re-analysis of the deposited data

Results flagged for a closer look

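In 11 of 312 groups examined, 1 array stood far from the others of its group by Dixon's test; chance gives about 1 in 20. High values were those of SELENOP (1.78) and EPOR (0.41) in BUCY untreated piglet 3, CCR3 (0.40) in BUCY piglet 2 and IRF7 (-0.88) in BUCY piglet 4, and CAT (-1.32) in DOX untreated piglet 1. In DOX piglet 2, STAT2 (1.0), CXCL9 (1.75) and SLC5A1 (-0.24) were high, and in DOX piglet 4 CCNG1 (-0.29) was. Low values were those of CDK1 (-2.14) in BUCY piglet 4 and HK2 (-0.11) in DOX piglet 4.

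For 51 of the 153 named genes the difference between experiments itself differed between untreated and treated piglets. The threshold was an adjusted p of 0.05 in limma's test of that change, which 5.89% of all genes passed. Most named genes were chosen for a called untreated difference, which is part of this test. That choice raises their share, so the count is no result about these genes. The values are log2 differences, untreated minus treated, so a negative one means that BUCY stood lower against DOX without treatment than with it. Among genes of cell division and growth control, the values were CCNB1 (-2.29), BIRC5 (-1.90), CDC20 (-1.74), CDK1 (-1.60), AURKA (-1.13), CCNG1 (0.72). Among genes of lipid handling, the values were FABP3 (-2.47), SCD (-2.07), LPL (-1.79), PLIN2 (-1.34), FASN (-1.11), CPT1A (-1.02), ACLY (-0.66), UCP3 (2.22). Among genes of protein folding, respiration and ribosomes, the values were CYCS (-1.60), PDIA4 (-1.28), HSP90B1 (-1.12), RPL7L1 (-0.90), ATP5A1 (-0.74), RPL26L1 (-0.67), COX7A2 (-0.56), NDUFV2 (-0.55), DNAJC3 (-0.52), RPL13A (1.10). Among genes of brush border, transport and lysosomes, the values were SLC10A2 (-1.46), CTSA (1.38), GUSB (1.63), SLC46A1 (1.69), ARSA (1.71), SLC3A1 (1.80), TMPRSS15 (2.48), DPEP1 (2.79), FOLH1B (2.85), AQP10 (3.35). Among genes of defence and antigen presentation, the values were DMBT1 (-2.44), PSME2 (-0.85), LTF (0.90), SLA-DRA (1.41), B2M (1.55). Among genes of metabolism, redox and other roles, the values were GPX2 (-2.09), MAT1A (-1.46), PGK1 (-0.58), FTH1 (1.42), CAT (1.47), AMY2 (1.69), CYP27A1 (1.91), CYP2B22 (2.19), SGK1 (2.42), MMP20 (2.54), CYP3A29 (3.31), SELENOP (3.31).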

How the results depend on the processing

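The count of called genes was 6241 and ran from 5247 to 5870 with 1 array left out. It was 3854 with median centring, 4317 with Cy5 alone and 4633 with slide as a fixed block. With only the 11 untreated arrays in the fit it was 7085. The cause of these changes was not tested. When the difference had to exceed 1.5-fold the count was 509, a setting that asks for a larger difference by construction. SFTPD ranged from -1.64 to -1.26 and DMBT1 from -2.36 to -2.09 with 1 array left out. Within single slides or scan days DMBT1 was -2.57 (slide 2), -1.53 (slide 7) and -1.56 (scan day 3). Signs turned for CCR3 (0.48) and FABP2 (0.75) within slide 2, for ADM (0.057), IFNG (0.012), CXCL9 (0.057), ABO (-0.088) and MUL1 (0.12) within slide 7, and for MUL1 (0.13) within scan day 3, where the cause was not tested. Of 153 named genes, 146 kept their sign under every alternative run. No paired analysis was possible because replicate numbers only follow the order of the arrays. The fold moved by over 1.5 times under at least 1 alternative on the arrays pooled, with the direction kept (ranges are log2), for DPEP1 (2.62 to 3.66), SELENOP (2.27 to 3.06), MMP20 (2.25 to 4.23), CYP2B22 (2.11 to 4.08), CYP27A1 (1.81 to 3.06), ISG15 (-4.50 to -3.74), RSAD2 (-3.72 to -2.75), LPL (-3.23 to -2.14), MAT1A (-3.40 to -1.37), SLC10A2 (-2.91 to -1.58), UCP3 (1.55 to 3.33), GZMK (-1.48 to -0.65), TNFSF13B (-2.33 to -1.29), CD79A (-1.44 to -0.50), TLR7 (-2.02 to -1.17), BIRC5 (-2.43 to -1.62), IHH (0.77 to 1.54), IGFBP3 (0.71 to 1.63), AURKA (-2.23 to -1.30), CCL20 (-3.13 to -2.24) and GPX2 (-2.30 to -1.30). Further named genes moved as much. Among them were APOA1 (0.83 to 2.03), FABP1 (-1.89 to -0.74), FTH1 (0.32 to 1.73) and FABP6 (-2.83 to -1.50), whose calls were lost under some alternatives. The cause was not tested for any of these genes. Depth of signal limits IFNB1, IFNG, HK2, GPNMB, TNFSF13B and CCR3, which were not well above background on every untreated array.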

Other observations

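Some genes varied more within a group of untreated piglets than most did between the groups; they were chosen after their values were seen. SPP1, osteopontin, a secreted phosphoprotein, had levels of -3.63, -3.86, 1.18, 0.06 and -2.02 in BUCY untreated piglets. Piglets 1 and 2, which shared slide 2, lay far below piglets 3 and 4. ABO, the blood group glycosyltransferase, stood at 1.28, 2.20, -2.18, 0.28 and -1.89 in BUCY untreated piglets. MUL1, a mitochondrial ubiquitin ligase, stood at 1.31, -1.38, 1.37, -1.34, -1.25 and -1.34 in DOX untreated piglets, with piglets 1 and 3 apart from the other 4.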
